A study of Mus musculus with 3 samples.

Results

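Prostaglandins are lipid signals made from arachidonic acid, and 9 genes of their synthesis and sensing are described here among the 56833 genes of the table. They were chosen by name: the cyclooxygenases Ptgs1 and Ptgs2, the prostaglandin E synthases Ptges, Ptges2 and Ptges3, the prostacyclin synthase Ptgis, the prostaglandin D synthase Ptgds, and the E-prostanoid receptors Ptger2 and Ptger4. RNA came from mouse ankle synovium cells of the genotype Efhd1CreER; Ai9, sorted for the tdTomato reporter and labelled as telocytes, an interstitial cell type. The sorted cells stood for 24 h on collagen-coated CytoSoft plates that were soft (0.2 kPa), intermediate (8 kPa) or stiff (64 kPa). The number of animals behind a culture, their age and sex, and how the Cre was induced are not given in the sources used here. Every stiffness level had 1 library, so no test between levels was possible, no difference has a replicate check, and a difference between plates cannot be told apart from one between cultures.

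Sequencing depth was 25487064, 28081600 and 26474862 reads on genes in the soft, intermediate and stiff libraries. Efhd1, whose promoter drives the Cre, had 10, 5 and 3 reads in that order, and the telocyte markers Cd34 and Pdgfra stood at 235 to 318 and at 5118 to 6298 normalized counts. The sort reporter tdTomato itself had 818, 1193 and 2668, so its level had a larger stiff to soft log2 ratio (1.70) than any of the 8 detected members. A normalized count is a read count divided by the library's size factor, so that equal numbers mean equal shares of comparable reads. Macrophage markers were present in every library: the 14 genes of that list summed to 30759.7 normalized counts at 0.2 kPa, to 38200.3 at 8 kPa and to 66689 at 64 kPa, and none was at 0. In such bulk samples, fewer cells of a type and less RNA per cell cannot be told apart.

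As background, phospholipases release arachidonic acid from membranes, and cyclooxygenases turn it into prostaglandin H2. Terminal synthases then make each final product, of which prostaglandin E2 acts through 4 receptor types on the cell surface. Ptgs2 is the inducible cyclooxygenase and Ptges the synthase induced with it, and in synovial fibroblasts both respond to inflammatory cytokines; their product is a mediator of joint pain and inflammation, and cyclooxygenases are the targets of aspirin-like drugs. Ptger2 and Ptger4 raise cyclic AMP when prostaglandin E2 binds, whereas Ptger1 acts through calcium and Ptger3 lowers cyclic AMP.

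Promoter windows of 250 bases before to 50 bases after the RefSeq start (GRCm38.p6) are shown for the 3 members with higher counts on both stiffer plates that also passed 0.5 in log2 ratio on the stiff plate, and for Ptges, which was lower there. They are read 5′ to 3′ along the gene. Capitals mark, in Ptgs2, the C/EBP match TTNNGCAA and the overlapping pair of a cyclic AMP response core (TGACG, here on the other strand) and an E-box (CACGTG). In Ptger2 they mark TTNNGCAA, here on the other strand, and the CCAAT box. In Ptger4 they mark the GC boxes (GGGCGG), all on the other strand and so printed as CCGCCC, and the CCAAT box. In Ptges they mark the GC boxes and, on the other strand, the TEAD match GGAATG.
Ptgs2 (chr1:150099781-150100080, plus strand): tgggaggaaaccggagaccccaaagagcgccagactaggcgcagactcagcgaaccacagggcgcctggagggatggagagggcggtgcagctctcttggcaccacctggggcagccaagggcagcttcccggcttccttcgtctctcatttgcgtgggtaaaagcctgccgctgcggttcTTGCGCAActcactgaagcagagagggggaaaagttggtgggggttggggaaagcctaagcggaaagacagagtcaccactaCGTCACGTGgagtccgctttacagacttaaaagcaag
Ptger2 (chr14:44987861-44988160, plus strand): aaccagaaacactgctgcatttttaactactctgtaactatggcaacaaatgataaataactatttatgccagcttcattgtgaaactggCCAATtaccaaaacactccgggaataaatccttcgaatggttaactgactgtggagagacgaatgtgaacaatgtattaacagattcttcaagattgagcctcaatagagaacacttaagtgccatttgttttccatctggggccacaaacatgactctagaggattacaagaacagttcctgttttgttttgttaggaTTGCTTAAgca
Ptger4 (chr15:5244138-5244437, minus strand): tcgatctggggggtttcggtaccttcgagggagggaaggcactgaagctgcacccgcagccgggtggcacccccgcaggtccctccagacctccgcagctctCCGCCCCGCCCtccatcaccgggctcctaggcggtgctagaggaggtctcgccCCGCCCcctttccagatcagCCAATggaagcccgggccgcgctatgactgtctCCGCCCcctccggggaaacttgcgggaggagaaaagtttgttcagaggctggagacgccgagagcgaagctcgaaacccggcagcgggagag
Ptges (chr2:30903248-30903547, minus strand): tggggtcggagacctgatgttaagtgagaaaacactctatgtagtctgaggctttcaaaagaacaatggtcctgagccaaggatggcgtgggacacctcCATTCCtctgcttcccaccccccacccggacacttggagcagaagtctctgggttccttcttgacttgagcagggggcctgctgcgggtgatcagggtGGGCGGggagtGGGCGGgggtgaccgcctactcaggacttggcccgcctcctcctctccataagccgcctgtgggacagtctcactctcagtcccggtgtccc

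The RefSeq table held a window for 8 of the 9 members, and each motif was searched on both strands in these and in all 32851 windows. The Ptgs2 window was the one among the 8 that joined a cyclic AMP response core, starting at base 14, with an E-box starting at base 17 after the RefSeq start, and its TTGCGCAA lay 69 bases before the start. The core alone was also matched in Ptges3, the E-box alone in Ptges2 and the C/EBP letters in Ptger2, so each was held by 2 of the 8 windows. Across all windows that core was found in 20.8%, the E-box in 7.15% and the C/EBP letters in 10.8%. GC boxes occurred in 4 of the 8 windows and in 35.7% of all, with 4 matches each in Ptger4 and Ptges3 and 2 in Ptges. The AP-1 letters TGANTCA and the NF-kB motif were each matched in the Ptgds window alone, against 7.81% and 4.51% of all windows. No member window held a CArG box (1.63% of all windows), the site of serum response factor, or the letters TATAAA (13.6%). GGAATG was found in Ptges and Ptges2 and in 14.7% of all windows, and CCAAT in Ptger2 and Ptger4 and in 37.4%. A match describes letters in this window and is not a measured binding site.

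Messenger RNA decay signals differed among the members. The pentamer ATTTA, the core of AU-rich elements bound by decay factors such as tristetraprolin (Zfp36), was counted in the 3′ untranslated region of each GENCODE canonical transcript. Ptgs2 held 14 in 2445 bases, or 5.73 per kilobase, a density reached by 3.55% of 10961 genes. The 30 bases of Ptgs2 richest in the pentamer carry 4 copies, shown in capitals (GRCm39 chr1:149981545-149981574, plus strand).
Ptgs2 AU-rich stretch: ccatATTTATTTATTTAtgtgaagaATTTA

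Ptger4 held 5 copies (4.06 per kilobase) and Ptger2 held 6 (3.29 per kilobase), densities reached by 9.48% and 15.9% of genes. Ptgs1, Ptges and Ptgis had 0, Ptges2 had 4, and Ptges3 had 4 in its shorter region (3.37 per kilobase). Genes with at least 3 per kilobase, 2121 in all, had a median stiff to soft log2 ratio of -0.04 and 42.9% of them were higher on the stiff plate, against a median of 0.01 and 52.1% over all 10961 genes. Of the 4 members at that density, Ptgs2, Ptger2 and Ptger4 were higher on the stiff plate and Ptges3 had a ratio of 0.004.

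The inducible cyclooxygenase Ptgs2 was the most abundant member at every stiffness. Its place in GRCm39 is chromosome 1, 149975194 to 149983978, plus strand, and the canonical transcript has 10 exons. Its level was 21994 normalized counts at 0.2 kPa, 28806 at 8 kPa and 31599.8 at 64 kPa. Both stiffer plates were above the soft one, and most of the difference was already present at 8 kPa. The stiff library had 1.44 times the soft level, a log2 ratio of 0.52 with an exact 95% counting interval from 0.50 to 0.55. The intermediate to soft ratio was 0.39 (interval 0.36 to 0.41) and the stiff to intermediate ratio 0.13 (interval 0.11 to 0.16). These intervals cover counting error only. The antisense transcript Ptgs2os, whose span overlaps Ptgs2, stood at 149.7, 166 and 137 normalized counts, far below Ptgs2.

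Ptgs1, the constitutive cyclooxygenase, went the other way. The gene has 11 exons and sits at chromosome 2, 36120438 to 36142287, plus strand. It had 6326 normalized counts at 0.2 kPa, 6109 at 8 kPa and 4879 at 64 kPa. The intermediate to soft log2 ratio was -0.05, with an interval from -0.10 to 9.7e-06, and under each of the 4 other scalings the upper bound lay below 0, at -0.036 to -0.008. The stiff library was below both. The stiff to soft ratio was -0.37, with an interval from -0.43 to -0.32, and the stiff to intermediate ratio was -0.32.

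Within a library the share of Ptgs2 among cyclooxygenase reads does not depend on the size factor. It was 77.7% of 27625 reads in the soft library (exact Clopper-Pearson interval 77.2 to 78.2%), 82.5% of 37037 reads in the intermediate (82.1 to 82.9%) and 86.6% of 35572 reads in the stiff (86.3 to 87.0%). The 3 intervals were separate, and the share was higher at each step of stiffness. Per kilobase of transcript the shares were 67.7%, 74.0% and 79.6%, so Ptgs2 remained the larger of the pair.

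**Figure D1:**
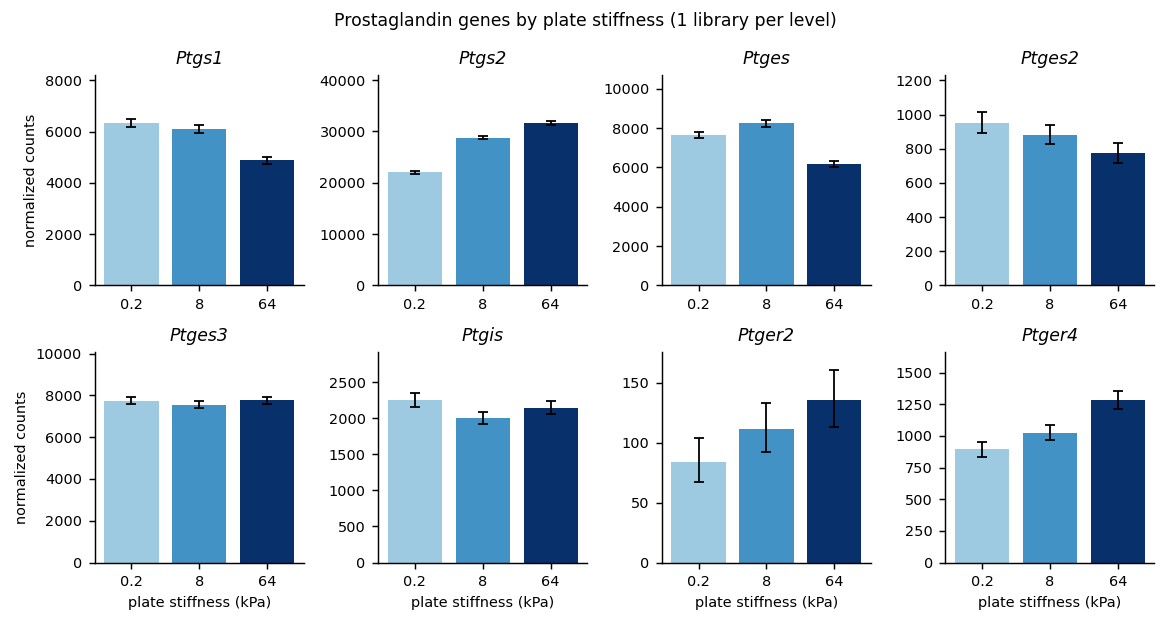
Normalized counts (vertical axes, each from 0) of the 8 detected members against plate stiffness in kPa, with 1 library per bar and exact 95% counting intervals as error bars. Ptgs2, Ptger2 and Ptger4 were highest at 64 kPa, Ptgs1, Ptges and Ptges2 were lowest there, and Ptges3 stayed between 7545 and 7758.

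Ptges, which converts prostaglandin H2 to prostaglandin E2 and works with Ptgs2, had its highest level on the intermediate plate. Its 3 exons lie in chromosome 2, 30779483 to 30820196, minus strand. The values were 7655 normalized counts at 0.2 kPa, 8255 at 8 kPa and 6162 at 64 kPa. The intermediate to soft log2 ratio was 0.11 (interval 0.06 to 0.15), whereas the stiff library was below both others, at -0.31 against soft (interval -0.36 to -0.26) and -0.42 against intermediate (interval -0.47 to -0.37). Ptges and Ptgs2 were therefore both above soft at 8 kPa and on opposite sides of it at 64 kPa.

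Ptges2, a membrane-associated synthase, was lower the stiffer the plate. It stood at 949 normalized counts at 0.2 kPa, 881 at 8 kPa and 773 at 64 kPa, and the gene sits at chromosome 2, 32285659 to 32295786, plus strand. The stiff to soft ratio was -0.30, with an interval from -0.44 to -0.16, while the intermediate to soft interval of -0.24 to 0.03 included 0. After subtraction of the trend of ratios with transcript length and GC content the stiff to soft ratio was -0.56 and the intermediate to soft ratio -0.26, which is outside that interval.

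Ptges3, known both as a cytosolic synthase and as p23, a co-chaperone of Hsp90, differed little across the plates. The gene sits at chromosome 10, 127894816 to 127913141, plus strand. From soft to stiff it had 7735, 7545 and 7758 normalized counts, and its stiff to soft ratio of 0.004 had an interval from -0.04 to 0.05. Scaled by total reads that interval was -0.10 to -0.005. With the length and GC trend subtracted that ratio was 0.13. All 480 bases of the pseudogene Ptges3-ps are identical to part of the 2007 bases of the Ptges3 transcript, so the division of reads between them is uncertain; Ptges3-ps was listed at 459, 442 and 429 normalized counts.

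Among reads of the 3 prostaglandin E synthases, Ptges took 46.9% in the soft library (interval 46.1 to 47.6%), 49.5% in the intermediate (48.7 to 50.2%) and 41.9% in the stiff (41.1 to 42.8%). The stiff share was below both others and the intervals did not overlap. Per kilobase, with the shorter transcript of Ptges3 taken into account, the shares of Ptges were 33.9%, 36.3% and 29.4%.

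**Figure D2:**
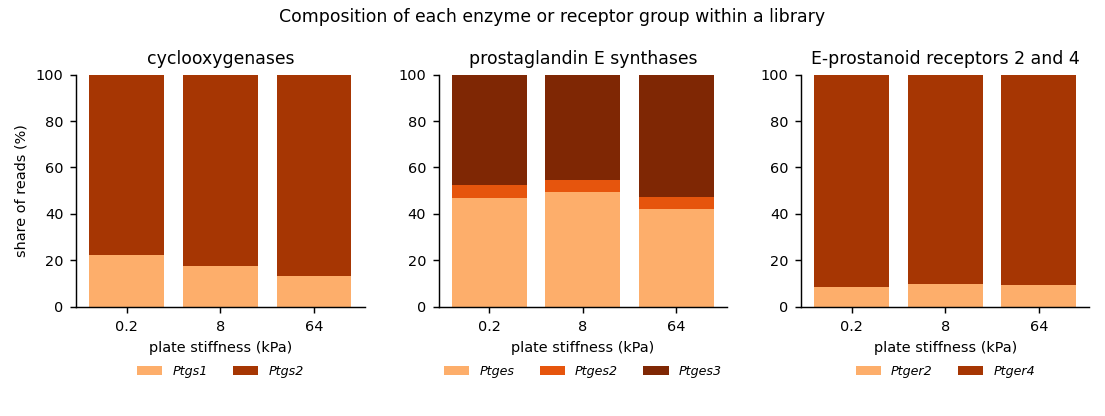
Share of reads in percent (vertical axis) of each gene within the cyclooxygenases, the prostaglandin E synthases and the pair Ptger2 and Ptger4, against plate stiffness in kPa, with 1 library per bar. The Ptgs2 part grew from 77.7% to 86.6%, the Ptges part was largest at 49.5% on the intermediate plate, and the Ptger2 part stayed between 8.60% and 9.78%.

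Ptgis makes prostacyclin, the product of vessel walls and fibroblasts that acts on the receptor Ptgir. Its gene sits at chromosome 2, 167033725 to 167083018, minus strand. It had 2248 normalized counts at 0.2 kPa, 1999 at 8 kPa and 2145 at 64 kPa. The intermediate value was the lowest, with a ratio to soft of -0.17 (interval -0.26 to -0.08), and the stiff value did not differ from soft beyond counting error (-0.07, interval -0.15 to 0.02), although scaled by total reads the interval was -0.21 to -0.04. The 9 endothelial markers, of a cell type known to express Ptgis, summed to 61.5, 83.0 and 91.3 normalized counts from soft to stiff, and Cldn5 was at 0 in all 3. The 3 with a mean of at least 10, Kdr, Tek and Vwf, were higher in the stiff than in the soft library, with a median ratio of 1.07, and the interval lay above 0 for Kdr alone (0.32 to 1.92). Pecam1 and Cdh5, below that mean and picked out after their values were seen, had 12, 13 and 4 reads and 5, 3 and 0 reads. The part of these cells in the values of Ptgis was not tested.

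Ptgds, the lipocalin-type prostaglandin D synthase, had 1 read in the soft library and 0 in the others. A count of 0 allows up to 3 reads, or 2.83 and 3.08 normalized counts in the intermediate and stiff libraries, so no difference could be read from it.

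Both prostaglandin E2 receptors among the members were higher on stiffer plates. Ptger4 (chromosome 15, 5236142 to 5273673, minus strand) had 893 normalized counts at 0.2 kPa, 1027 at 8 kPa and 1281 at 64 kPa. Its stiff to soft log2 ratio was 0.52, with an interval from 0.39 to 0.65, and both steps lay above 0, at 0.20 (interval 0.07 to 0.33) and 0.32 (interval 0.20 to 0.44). The span of Ptger4 overlaps that of Ttc33 on the other strand, which was lower in the stiff library (1249.7, 1121 and 989 normalized counts); the library kit keeps strand, but the strand setting of the counting is not given in the sources used here.

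Ptger2 (chromosome 14, 45225652 to 45241277, plus strand) had 84.1, 111 and 135 normalized counts from soft to stiff. These rest on 82, 118 and 132 reads. Its stiff to soft ratio of 0.68 (interval 0.28 to 1.10) was the largest of the detected members, but each single step had an interval that included 0, from -0.01 to 0.83 for intermediate to soft and from -0.09 to 0.65 for stiff to intermediate. Ptger2 made up 8.60%, 9.78% and 9.56% of the reads of the receptor pair, with overlapping intervals, so no change in their balance was detectable.

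Levels of different genes can be compared only per length. In normalized counts per kilobase of canonical transcript, the soft library ranked Ptgs2 first at 4633, then Ptges3 at 3854, Ptgs1 at 2207, Ptges at 2073, Ptgis at 1022, Ptger4 at 269.6, Ptges2 at 182 and Ptger2 at 22.8. In the stiff library Ptgs2 stood at 6657 and Ptger2 at 36.7, and the order was the same. Ptgs1 and Ptges were close neighbours, at 2131 and 2235 on the intermediate plate and 1702 and 1669 on the stiff one, and their soft order, like that of Ptger4 and Ptges2, turns round when all annotated exons are counted as length. Among 11655 annotated genes that averaged 50 normalized counts or more, Ptgs2 per kilobase exceeded 96.9% in the soft and 97.9% in the stiff library, and Ptger2 exceeded 6.40% and 10.9%.

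A gene was counted as past the fold when its log2 ratio reached 1 in size and its mean over the libraries was at least 50. The mean was reached by 8 of the 9 members, all but Ptgds. None of the 8 passed in any comparison. Over all 11873 genes with that mean, 3.6% passed when stiff was set against soft, 0.168% for intermediate against soft and 1.25% for stiff against intermediate. At a ratio of 0.5, Ptgs2, Ptger2 and Ptger4 passed as higher in stiff against soft, which is 3 of 8, beside 11.8% of all genes, and 0 of 8 passed as lower, beside 3.77%. With the length and GC trend subtracted Ptges2 passed as lower, at -0.56, and Ptgs2, Ptger4 and Ptger2 were at 0.61, 0.53 and 0.73. Ptgs2 and Ptger4 passed narrowly: scaled by total reads they had ratios of 0.47 and 0.46, and Ptger2 alone was then past 0.5, at 0.63. The differences were small but, given the depth, larger than counting error: between stiff and soft the interval lay above 0 for 3 of 8 members and below 0 for 3 of 8, beside 31.3% and 25.9% of all genes. It included 0 for Ptges3 and Ptgis, 2 of 8, beside 42.9% of all genes. Scaled by total reads or by the upper quartile, both intervals lay below 0 and the count below 0 was 5 of 8, beside 33.8% and 34.2% of all genes; this recount was added after the values were seen. Genes with so many reads pass counting error easily, so these shares say nothing particular to the members.

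Each member was also placed among all 11873 genes. In stiff against soft, Ptger2 lay above 92.5% of genes, Ptgs2 above 88.7% and Ptger4 above 88.6%, whereas Ptgs1 lay above 7.35%, Ptges above 10.3% and Ptges2 above 11.3%. In intermediate against soft, Ptger2 and Ptgs2 lay above 93.2% and 92.8%, and Ptgis above 9.24%. In stiff against intermediate, Ptges was the lowest member, above 4.97% of genes.

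**Figure D3:**
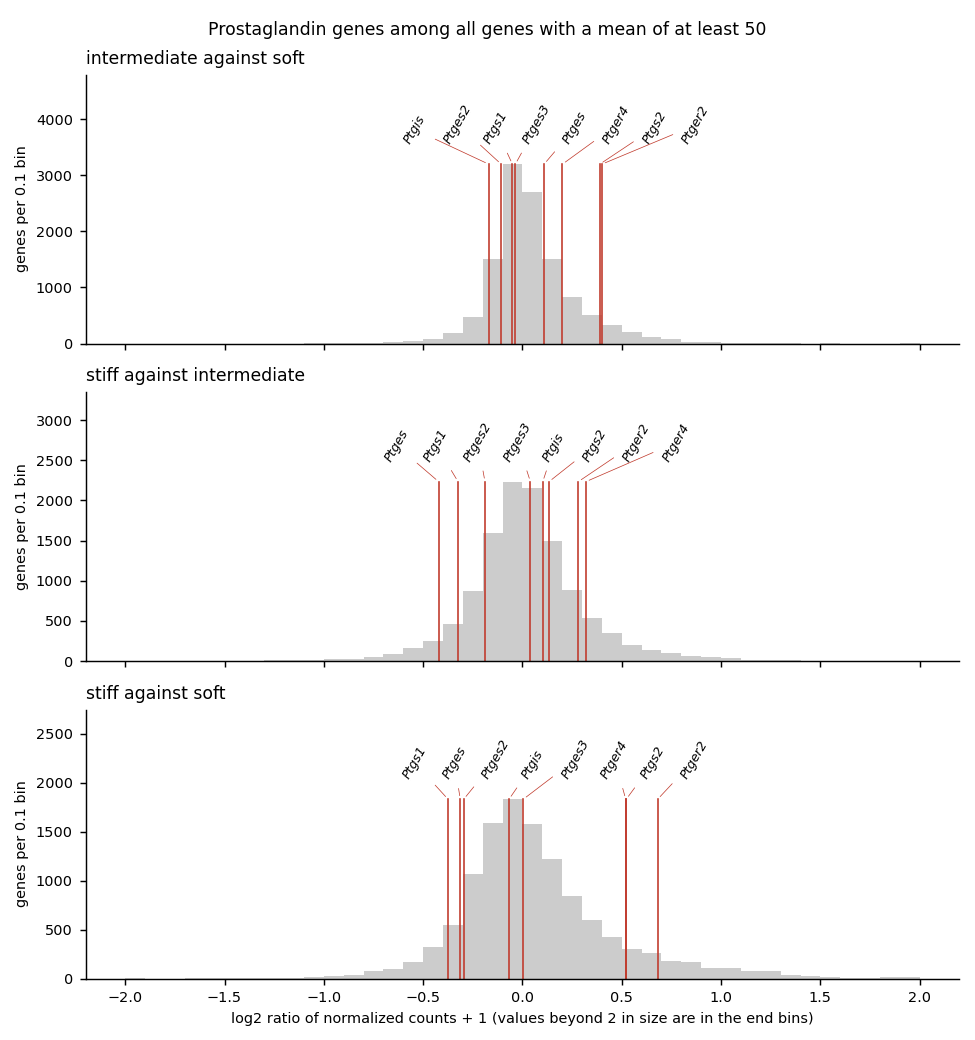
Histograms of log2 ratios (horizontal axis) over 11873 genes whose mean was 50 or more, as genes per bin, for the 3 comparisons, with a red line at each detected member. Between stiff and soft Ptgs2, Ptger4 and Ptger2 lie in the upper shoulder at 0.52, 0.52 and 0.68, and Ptgs1, Ptges and Ptges2 in the lower one at -0.37, -0.31 and -0.30.

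The other genes of the pathway were taken from lists by role, and a list is described by its counts and its median over genes with a mean of at least 10. All 14291 such genes had a median stiff to soft ratio of 0.0004, and 50.9% of them were above 0. Upstream, 8 of 18 phospholipase A2 genes reached that mean, 3 of them above and 5 below soft on the stiff plate, and the median was -0.17. Pla2g4a, the cytosolic enzyme that supplies arachidonic acid to cyclooxygenases, had 7588, 7487 and 5989 normalized counts from soft to stiff, a ratio of -0.34 (interval -0.39 to -0.29). Its pattern over the plates was close to that of Ptgs1. Pla2g6, a calcium-independent enzyme, stood at 416, 435 and 679. Pla2g7, which hydrolyses platelet-activating factor and is made by macrophages, was the one to reach the fold, at 938, 1130.3 and 1878 and a ratio of 1.0 (interval 0.89 to 1.12). That call is marginal, since each of the 4 other scalings shifts stiff to soft ratios, by -0.058 to -0.008, and so takes Pla2g7 below the fold. Pla2g2d, a secreted enzyme picked out after its values were seen, had 27, 28 and 13 reads and a ratio of -1.0 (interval -2.13 to -0.05). Pla2g15, a lysosomal enzyme, stood between 1514 and 1563 on the 3 plates, and Pla2g12a, a secreted one, at 485, 499.6 and 574.

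Of the 7 other terminal enzymes, 3 were higher and 4 lower in the stiff library, none past the fold, and the median was -0.05. Akr1c18, an aldo-keto reductase that also inactivates progesterone, had the lowest ratio of the 7, with 2724, 2316 and 1521 normalized counts and a ratio of -0.84 (interval -0.93 to -0.75). Akr1b3 and Akr1b8 differed little, with ratios of 0.08 and -0.05. Cbr1, a carbonyl reductase that also counts among the breakdown genes, stood at 1083, 1132 and 897, a ratio of -0.27. Tbxas1, the thromboxane synthase, and Hpgds, the haematopoietic prostaglandin D synthase, are genes of myeloid cells and were chosen for mention after their values were seen. Tbxas1 stood at 214, 274 and 284 (ratio 0.41, interval 0.14 to 0.67), and Hpgds at 33.8, 33.9 and 46.1 with an interval that included 0.

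The 7 prostanoid receptors outside the members were the other prostaglandin E2 receptors, Ptger1 and Ptger3, and those of the remaining prostanoids. Of the 7, 5 reached a mean of 10, of which 2 were above and 3 below soft on the stiff plate, and the median was -0.19; Ptgdr had 0 reads throughout. Ptger1 had 246, 207 and 176 normalized counts from soft to stiff, a ratio of -0.48 (interval -0.77 to -0.19). Ptger3, named after its values were seen, had 28, 12 and 11 reads, and its ratio to soft was -1.27 on both plates with intervals from -2.45 to -0.32 at 8 kPa and from -2.50 to -0.30 at 64 kPa. Of the 4 E-prostanoid receptors, the pair that raises cyclic AMP was thus higher and the other pair lower in the stiff than in the soft library. Ptgfr, the prostaglandin F receptor, stood at 1726, 1544 and 1517, and Ptgir, the prostacyclin receptor, at 1022, 1061 and 1102 with a stiff to soft interval of -0.02 to 0.23. Tbxa2r, the thromboxane receptor, had 138, 94.3 and 149, with a stiff to soft ratio of 0.10 (interval -0.24 to 0.45) and its lowest level on the intermediate plate.

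Transport and breakdown genes were all measured, 3 of 7 above and 4 below soft on the stiff plate. Slco2a1, the carrier that takes prostaglandins up from outside the cell before they are degraded, had 3249, 4316 and 5768 normalized counts, and the interval of each step lay above 0. Its stiff to soft ratio of 0.83 (interval 0.77 to 0.89) was larger than that of any of the 8 detected members. Hpgd, the dehydrogenase that inactivates prostaglandins inside the cell and was picked out after its values were seen, stood at 340.4, 287 and 241, a ratio of -0.50 (interval -0.75 to -0.25). Abcc4, an exporter of prostaglandin E2, had 4710, 5079 and 5149, a ratio of 0.13. The reductases Ptgr1 and Ptgr3, which act on oxidised prostaglandins, had ratios of 0.22 and -0.16.

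**Figure D4:**
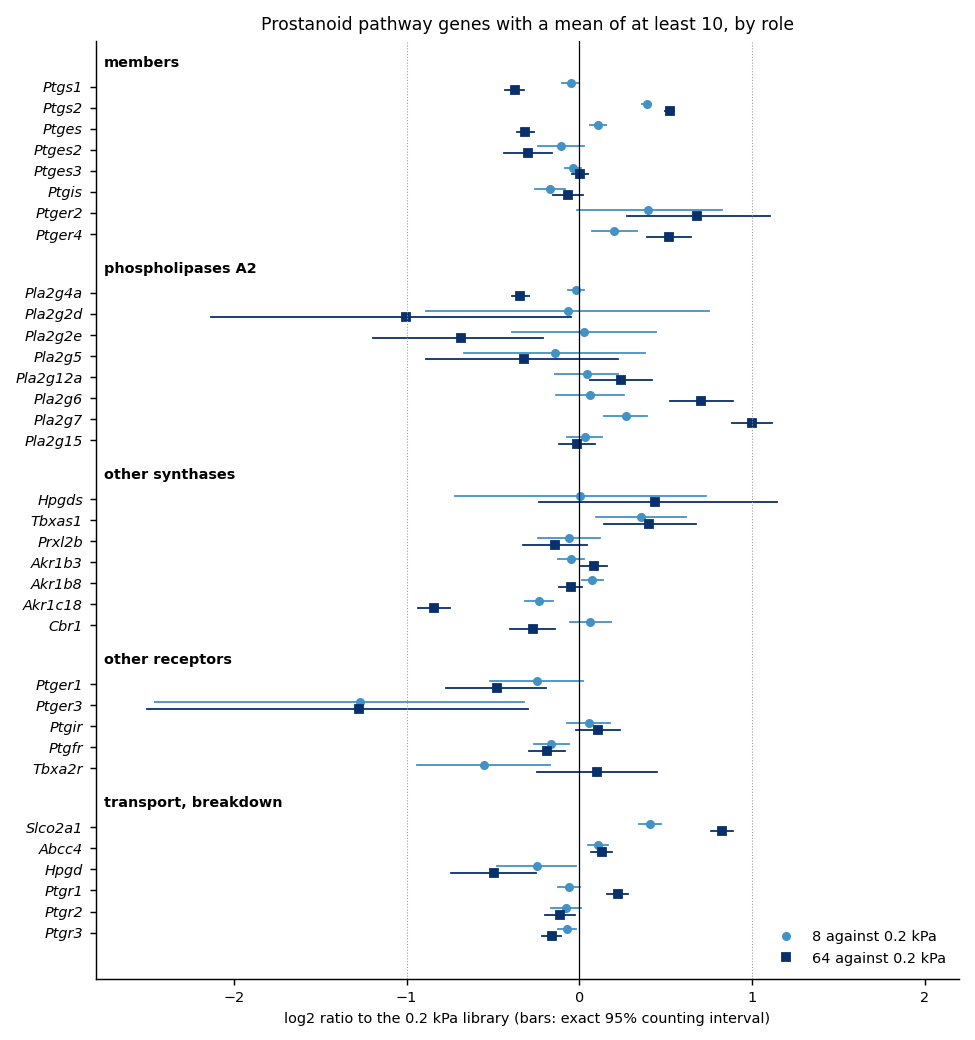
Log2 ratios to the 0.2 kPa library (horizontal axis) of pathway genes with a mean of at least 10, grouped by role, as circles for 8 kPa and squares for 64 kPa with exact 95% counting intervals, and dotted lines at the fold used for calls. Slco2a1 at 0.83 and Pla2g7 at 1.0 stand to the right on the stiff plate, and Akr1c18 at -0.84 stands to the left, with Ptger3 at -1.27 and Pla2g2d at -1.0 further left on wide intervals.

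Genes that act on Ptgs2 and Ptges were looked at next. Of 17 inducers averaging 10 or more, 14 were higher in the intermediate than in the soft library, with a median of 0.30, beside 52.6% of all genes above 0. In the stiff against the soft library 11 were higher and 6 lower, with a median of 0.37, beside 50.9% of all genes above 0. Between stiff and intermediate 8 were higher and 9 lower. Egr1, a transcription factor known to act on the Ptges promoter, had 6895, 10499.8 and 11459 normalized counts from soft to stiff, and Tnf had 54.3, 66.9 and 112. Il1a and Il1b, named after their values were seen, were highest on the intermediate plate, at 91.2, 183 and 124 and at 135, 178 and 112. Il1r1, the receptor for both, stood at 5983, 5771 and 5299. Ereg, a ligand of the epidermal growth factor receptor, was highest on the intermediate plate, at 5424, 8041 and 5662. Tnfrsf1a, a receptor for Tnf, was level at 8488 to 8575.

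Most genes that inflammatory signals induce together with Ptgs2 were, like Ptges, above soft at 8 kPa and below the intermediate level at 64 kPa. Of 14, 12 were higher in the intermediate than in the soft library and 12 were lower in the stiff than in the intermediate, with medians of 0.13 and -0.32, beside 48.9% of all genes below 0 in the second step. Mmp13, a collagenase, had 18731, 20166 and 9233 normalized counts, and Mmp3, stromelysin, had 43770.3, 33750.7 and 19885. The chemokines Ccl2 and Ccl7 had ratios of -0.20 and -0.08 in the second step, the cytokine Il11 had -0.27, and Has2, a hyaluronan synthase, had -0.60. Cxcl2 and Tnfaip3, the 2 above 0 in the second step and named after their values were seen, had ratios of 0.52 and 0.11 there. Both steps share the intermediate library, so a high value there enters them with opposite signs.

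Of 13 cyclic AMP responsive genes 11 were higher in the intermediate than in the soft library, and 9 in the stiff than in the soft. The medians were 0.46 and 0.22, beside 52.6% and 50.9% of all genes above 0. Between stiff and intermediate 7 were higher and 6 lower. Sik1, a kinase that restrains this response, had 140.5, 206 and 314 normalized counts, a stiff to soft ratio of 1.15, and Fos had 660.2, 909.7 and 1153. Fosb and Nr4a3, by contrast, returned to the soft level or below in the stiff library, at 154.8, 461 and 140.5 and at 130.2, 240.4 and 105. Nr4a1, an orphan nuclear receptor, stood at 1205, 1729 and 1330.1, and the phosphodiesterase Pde4b at 1354, 1346 and 1464. A further list held 12 genes of glucocorticoid action and of the stability of AU-rich messages such as that of Ptgs2. Of these, 9 were higher and 3 lower in the intermediate than in the soft library, with a median of 0.15. In the stiff library 8 were higher than in the soft, with a median of 0.25, beside the same 50.9% of all genes. The 8 include Elavl1 (HuR), which is known to stabilise such messages and had a ratio of 0.26, so the list does not hold only restraining genes. Nr3c1, the glucocorticoid receptor, had a ratio of -0.19, its target Anxa1 had -0.09, and Zfp36l2, a relative of Zfp36, had 0.39. Zfp36, the decay factor named above and picked out here for that, stood at 1493, 1912 and 2347. Dusp1, which appears in both lists, stood at 2629.6, 2322 and 4000.5.

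**Figure D5:**
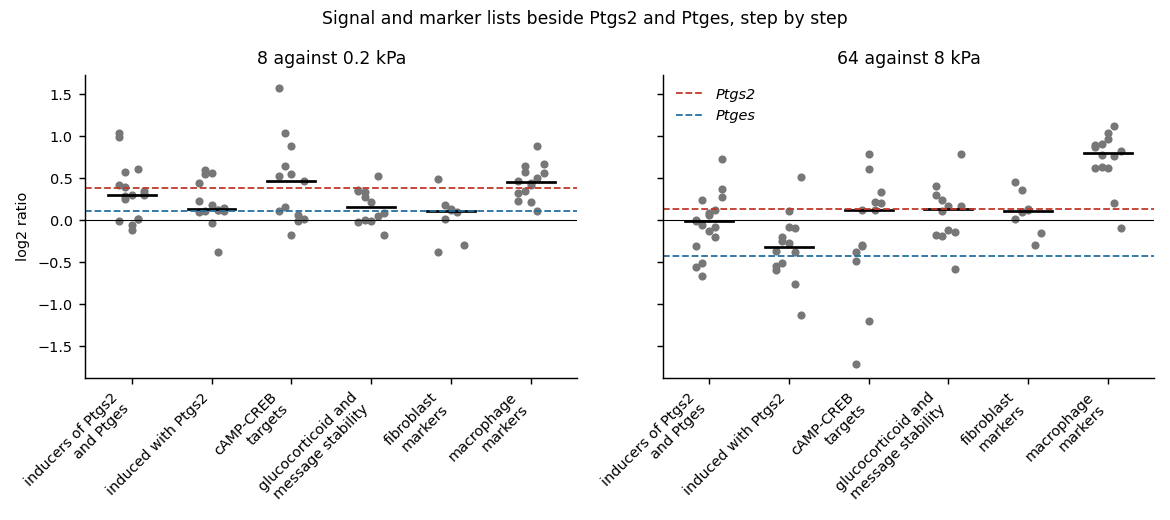
Log2 ratios (vertical axis) of single genes (grey points) and their medians (black bars) for 6 lists, for the step from 0.2 to 8 kPa and that from 8 to 64 kPa, with dashed lines at the ratios of Ptgs2 and Ptges. In the second step the genes induced with Ptgs2 have a median of -0.32, near Ptges at -0.42 and below Ptgs2 at 0.13, and macrophage markers have a median of 0.80.

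Markers of macrophages, which express both cyclooxygenases, had a median ratio above that of every member. All 14 were higher in the stiff than in the soft library, with ratios from 0.31 (Cd14) to 2.00 (Marco) and a median of 1.26, and 11 were past the fold, beside 3.22% of all genes. In the same library Ptgs1 was lower, and Ptgs2, Ptger2, Ptger4 and Tbxas1 were higher. The part of macrophages in these differences was not tested. Fibroblast markers were mixed, with 5 of 8 higher and 3 lower. Of 11 mast cell and basophil markers 6 had no read in any library, and 3 averaged 10 or more. Among those 3, Mcpt8 stood at 1134, 760 and 742, a stiff to soft ratio of -0.61. Gata2 and Kit went the other way, with ratios of 0.09 and 0.10, and both intervals included 0. The platelet genes Gp1ba and Gp9 had no read, although Pf4 and Ppbp were present at 4794 to 7553 and 1233 to 1838. Telocyte markers, tdTomato among them, had 5 of 8 higher and 3 lower in the stiff than in the soft library, mural cell markers 2 of 4 each way, and lining fibroblast markers 3 of 4 higher and 1 lower. A single skeletal muscle marker of 8 and a single arachnoid or oligodendroglial marker of 6 reached a mean of 10, both higher in the stiff library, and the 6 erythroid markers had no read.

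Genes most like a member over the 3 libraries were found by the Euclidean distance between log2 ratios to the soft library, among genes averaging 200 normalized counts or more. Nearest to Ptger2, the detected member with the widest range, were Plekhg2, Zfp704, Sec24b, Sec16a and Plek, at distances of 0.006 to 0.028. Nearest to Ptgs2 were AI506816, C1qtnf1, Cramp1, 1700017B05Rik and Pacc1, at 0.014 to 0.021, a search added after the values were seen. With 3 libraries such likeness is common: 111 of 9704 genes lay within 0.1 of Ptger2 and 120 of 9703 within 0.1 of Ptgs2. With a minimum mean of 50 in place of 200, Magi1, ENSMUSG00000121485 and Dedd2 took the place of 3 of the 5 genes nearest to Ptger2, and Bnc2 entered those nearest to Ptgs2.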

How the data were processed

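The deposited signal values are gene read counts divided by a DESeq2 size factor per library, as the deposited table's name and the submitters' processing notes have it; those notes also name GRCm39, bcl2fastq 2.20.0, STAR 2.7.9a, featureCounts of Subread 2.0.1 and DESeq2 1.34.0. Kits were RNeasy Plus and TruSeq Stranded mRNA, per the labels' protocols. The 3 files are identical, and each column bears 1 sample's title. In each column 100% of values were whole multiples of the smallest, within a relative tolerance of 1e-06, which gave back whole reads; 33275 genes had none. With 1 library per level a count test could not be run.

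Log2 ratios use a pseudocount of 1, which understates changes of low genes. Intervals are exact 95% Clopper-Pearson intervals on reads, or exact Poisson intervals for levels, without a pseudocount; amplified reads are not independent molecules, so they cover counting error only. Gene positions, lengths and GC contents are from GENCODE vM39 (GRCm39), matched by symbol. Ptgr3 was read from its older symbol Zadh2. The trend with length and GC content was the median of the 200 nearest of 13923 genes. The counting rule was also run on simulated reads with known folds. Those reads held counting error alone, so that run says nothing on differences between cultures.

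The members, 21 lists and the rule for naming genes were chosen with earlier results of these data known. The rule for naming took all members, list genes past the fold with a mean of at least 50 plus 4 more per list by level, and the 5 nearest genes; of the marker lists only some of the genes it took are printed, and those lists are given by their counts. Lists served for pathway roles, signals and markers of macrophages, mast cells, endothelium, platelets, mural, arachnoid, fibroblast, telocyte, lining, muscle and erythroid cells. Alternatives were pseudocounts, 4 scalings, minimum means, folds, exon lengths and the trend. The tools were numpy 2.4.6, scipy 1.17.1, pandas 2.3.3, matplotlib 3.10.9 and Biopython 1.88 in Python 3.11.15.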

Additional observations from a re-analysis of the deposited data

How the results depend on the processing

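Each level had 1 library, so no replicate could be left out. No paired analysis was possible because the groups share no second library. No member passed a log2 ratio of 1 in any comparison under the 2 other pseudocounts, the 4 other scalings, the length and GC trend, minimum means of 10 and 200, or a ratio of 2. At a ratio of 0.5 there were 3 between stiff and soft, and without a minimum mean there was 1 between stiff and soft and 1 between intermediate and soft, both times Ptgds with its single read. Per kilobase the share of Ptgs2 among cyclooxygenases was 67.7%, 74.0% and 79.6%, and that of Ptges among its group 33.9%, 36.3% and 29.4%, from soft to stiff. Of 24 member ratios, 14 stayed inside their counting intervals throughout and 2, both of Ptges3, changed sign under at least 1 setting. The 4 scalings shifted stiff to soft ratios by -0.058 to -0.008 and intermediate to soft ratios by -0.036 to -0.008. Members with an intermediate to soft interval below 0 were 1, and 2 to 4 under those scalings, a check added after the values were seen. The stiff to soft median of the genes induced with Ptgs2 was -0.09, and 0.0055 with the trend subtracted; the cause was not tested. Depth limits Ptgds, Ptger2 and Ptger3.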

Other observations

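The lipoxygenase arm, which turns the same arachidonic acid into leukotrienes, includes several genes of myeloid cells. Of 14 such genes 9 reached a mean of 10, with 5 higher and 4 lower in the stiff than in the soft library. Alox5ap, the protein that presents arachidonic acid to 5-lipoxygenase, had 938, 1032 and 2034 normalized counts from soft to stiff, a log2 ratio of 1.12 (interval 1.0 to 1.23). Cysltr1, a receptor for cysteinyl leukotrienes, had 61.5, 72.6 and 151, a ratio of 1.28 (interval 0.85 to 1.75). The enzyme itself, Alox5, was low, at 22 to 25 reads per library, and Alox15 had no read. Lta4h, which is found in most cells, was level at 2461, 2545 and 2538. Alox12 was lower in the stiff library, at 175, 172 and 112. Ltc4s, the leukotriene C4 synthase, was also lower there, with 26, 36 and 10 reads and a ratio of -1.30 (interval -2.59 to -0.28). Ltb4r2, a leukotriene B4 receptor, had 25, 20 and 9 reads, a ratio of -1.38 (interval -2.76 to -0.33), and was picked out after its values were seen. Mgst2, which can make leukotriene C4 as well, stood between 176 and 202. Macrophage markers were higher in the same library, and their part in these values was not tested.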
